A study of Mus musculus with 8 samples.

Results

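Osteoclast coupling and resorption genes are taken here as *Tnfsf11*, *Csf1*, *Tnfrsf11b*, *Tnfrsf11a*, *Ctsk* and *Acp5*, 6 of the 15880 genes in the deposited table. They were chosen by symbol, and each symbol has 1 Ensembl identifier. They were compared over 4 populations of bone-marrow stromal cells, to see which population holds transcripts of the signals to osteoclasts and which holds transcripts of the resorbing enzymes. The mice were heterozygous *Nes-Gfp* pups on a C57BL/6 background, taken on postnatal day 1 with no labelled treatment, and their crushed long bones and sterna were digested with collagenase. Cells without CD45, CD31 and Ter119 were divided into GFP+ Pdgfrα+, GFP+ Pdgfrα-, GFP- Pdgfrα+ and GFP- Pdgfrα- cells, and each population has 2 libraries. A library holds amplified RNA of 15000 to 80000 cells from 3 pooled pups, so no value belongs to a single animal. GFP is driven by nestin regulatory elements and reports their activity in the transgene. Osteoclasts and their precursors belong to the CD45+ blood lineage, which the gate removes, and the same gate removes red cell precursors that carry Ter119.

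Osteoclasts form from myeloid precursors under a pair of signals made by cells of the osteoblast lineage and other stroma. M-CSF, from *Csf1*, keeps the precursors alive through its receptor c-Fms, and RANKL, from *Tnfsf11*, binds RANK, from *Tnfrsf11a*, and drives their fusion, while the soluble decoy osteoprotegerin, from *Tnfrsf11b*, captures RANKL. The mature cell secretes acid and enzymes onto bone, among them the collagenase cathepsin K, from *Ctsk*, and the tartrate-resistant acid phosphatase, from *Acp5*, and signals passed back to osteoblasts couple bone formation to resorption.

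All values below are the deposited signal, on a linear scale. A value equals the reads of the gene plus 0.5, per 1e6 of an effective library size, and 3 reads, a value of 0.825 to 1.04, are called the floor. The floor and the counting intervals below cover counting error only, and reads of amplified cDNA are copies that share a molecule. Populations were compared with limma on log2(value + 1), where a log2 difference is the first population named minus the other. P-values were adjusted over all 15880 genes, and genes at 0.05 or below are named as called. With 2 libraries against 2, a two-sided exact permutation test cannot go below 0.333, so every call rests on the spread that limma pools over genes and libraries. A p-value that misses the threshold does not show that values did not differ. The GFP- Pdgfrα- libraries stand apart from the rest. Mitochondrial genes took 36.9% and 39.1% of their reads, against 24.2% and 22.2% in GFP+ Pdgfrα-, 13.0% and 13.7% in GFP+ Pdgfrα+ and 14.4% and 14.5% in GFP- Pdgfrα+ libraries, and 3824 and 3263 genes were at or under the floor, against 1819 to 2103 in the other 6 libraries. Fewer cells of a type and less RNA per cell cannot be told apart in these bulk samples.

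The choice of scaling moved the median log2 difference of all genes in the comparisons with GFP- Pdgfrα- cells. Centring each library on its median moved it by -0.45 for GFP+ Pdgfrα-, -0.45 for GFP- Pdgfrα+ and -0.48 for GFP+ Pdgfrα+ over GFP- Pdgfrα- cells, and quantile normalization by -0.30, -0.33 and -0.36. Leaving out mitochondrial genes moved it by -0.26 for GFP+ Pdgfrα+ over GFP+ Pdgfrα- cells, by 0.24 for GFP+ Pdgfrα- over GFP- Pdgfrα+ cells, by 0.11 for GFP+ Pdgfrα- over GFP- Pdgfrα- cells and by -0.12 for GFP+ Pdgfrα+ over GFP- Pdgfrα- cells. For the interaction the shifts were 0.43, 0.25 and -0.14. Counts and medians of gene lists under a scaling are to be read against these shifts, since all genes move with them. The log2 differences of *Csf1*, *Tnfrsf11b*, *Ctsk* and *Acp5* given as called are larger than these shifts, and where a scaling ended a call the text says so.

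Between the 2 Pdgfrα+ populations, 1 of the 6 genes was called, *Tnfsf11*, higher in GFP+ Pdgfrα+ cells. In that comparison 5.35% of all genes were called, 3.22% higher and 2.13% lower. Of GFP+ Pdgfrα+ over GFP+ Pdgfrα- cells, 4 of the 6 were called, each higher (*Tnfsf11*, *Csf1*, *Tnfrsf11b* and *Ctsk*), where 24.2% of all genes were called, 13.1% higher and 11.1% lower (2080 and 1768 genes, and 1565 and 3498 without mitochondrial genes). Higher in GFP- Pdgfrα+ cells than in GFP- Pdgfrα- cells were 3 of the 6 (*Csf1*, *Tnfrsf11b*, *Ctsk*), and 1 was lower (*Acp5*), where 59.7% of all genes were called, 32.9% higher and 26.8% lower. Scaling turned this split of 5226 and 4250 genes, to 3913 and 5720 with median centring and 4249 and 5086 with quantile normalization. Against GFP- Pdgfrα- cells, GFP+ Pdgfrα- cells gave 3 calls, where 53.7% of all genes were called: *Csf1* and *Ctsk* were higher and *Acp5* lower. Against GFP- Pdgfrα+ cells they gave 3, each lower (*Csf1*, *Tnfrsf11b*, *Ctsk*). In this comparison 27.9% of all genes were called, 2150 higher and 2277 lower (3642 and 1708 without mitochondrial genes). GFP+ Pdgfrα+ over GFP- Pdgfrα- cells gave 5, where 59.3% of all genes were called, and of these *Acp5* was lower and the rest higher. The interaction compares the difference of GFP+ minus GFP- cells among Pdgfrα+ cells with that among Pdgfrα- cells. For it 4 of the 6 were called, where 44.3% of all genes were. The counts of the gene lists below are read against these same shares. These comparisons share libraries, so their counts are not separate pieces of evidence.

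*Tnfsf11* (ENSMUSG00000022015), which encodes RANKL, lies on the minus strand of chromosome 14 at positions 78677252 to 78707850 of NCBIM37. Its value was 8.70 and 4.17 in GFP+ Pdgfrα+ libraries (replicates 1 and 2), 0.121 and 0.643 in GFP+ Pdgfrα-, 0.378 and 1.34 in GFP- Pdgfrα+, and 0.144 and 0.590 in GFP- Pdgfrα- libraries. Both GFP+ Pdgfrα+ libraries are above the other 6, and 5 of those 6 are under the floor. The reads behind these values are few: 31 and 14 in GFP+ Pdgfrα+ libraries, 0 and 2 in GFP+ Pdgfrα-, 1 and 4 in GFP- Pdgfrα+, and 0 and 2 in GFP- Pdgfrα- libraries. The means were 6.43 ± 3.20 (SD, n = 2 libraries) in GFP+ Pdgfrα+, 0.857 ± 0.678 in GFP- Pdgfrα+, 0.382 ± 0.369 in GFP+ Pdgfrα- and 0.367 ± 0.315 in GFP- Pdgfrα- cells, and the last 3 do not differ beyond their spread.

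The summed reads of *Tnfsf11* per library size were 25.4-fold higher in GFP+ Pdgfrα+ cells than in GFP+ Pdgfrα- cells (95% counting interval 6.63 to 216) and 9.30-fold higher than in GFP- Pdgfrα+ cells (3.70 to 30.01). The ratio of the means, a different measure, was 16.8 over GFP+ Pdgfrα- cells and 7.50 over GFP- Pdgfrα+ cells. With a library left out, the ratio of the means ran from 10.004 to 53.0 over GFP+ Pdgfrα- cells and from 4.81 to 17.0 over GFP- Pdgfrα+ cells. The log2 difference over GFP+ Pdgfrα- cells came to 2.38 (standard error 0.45, adjusted p = 0.00238, limma), and *Tnfsf11* was called under 21 of 21 alternatives (1.93 to 4.66, the larger values from tools that use the reads). Over GFP- Pdgfrα- cells the log2 difference was 2.39 (standard error 0.45, adjusted p = 0.000643, limma), called under 20 of 20 alternatives. Over GFP- Pdgfrα+ cells it was 1.98 (standard error 0.45, adjusted p = 0.0250, limma), with both libraries higher than both, and this call is weak. It was lost under 10 of 21 alternatives, and over all 21 the adjusted p-values ran from 0.0225 to 0.230.

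Without GFP+ Pdgfrα+ replicate 1 the log2 difference of *Tnfsf11* between the Pdgfrα+ populations was 1.53 (adjusted p = 0.140, limma), and without GFP- Pdgfrα+ replicate 1 it was 1.60 (0.207). The call was also lost without GFP- Pdgfrα+ replicate 2 (2.36, 0.0696) and without GFP+ Pdgfrα- replicate 1 (1.98, 0.0509), and it was kept without the GFP- Pdgfrα- libraries (1.98, adjusted p = 0.0279). By tool, the call of *Tnfsf11* was lost with DESeq2 (3.15, 0.230), edgeR (3.12, 0.123) and voom (3.14, 0.0560), and by setting with a pseudocount of 0.1 (2.89, 0.131), with no mean-variance trend (1.98, 0.0519) and with only the compared populations fitted (1.98, 0.0765). The direction was the same under all 21 alternatives run.

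*Csf1* (ENSMUSG00000014599), which encodes M-CSF, lies on the minus strand of chromosome 3 at positions 107543966 to 107563387. Its value was 113 and 82.9 in GFP+ Pdgfrα+ libraries, 137 and 108 in GFP- Pdgfrα+, 28.5 and 23.3 in GFP+ Pdgfrα-, and 2.44 and 5.31 in GFP- Pdgfrα- libraries. The Pdgfrα+ populations overlap each other, with replicate 1 the higher in both, and all 4 of their libraries are above those of GFP+ Pdgfrα- cells, which are above those of GFP- Pdgfrα- cells. In order the means were 123 ± 20.2 (SD, n = 2) in GFP- Pdgfrα+, 97.9 ± 21.1 in GFP+ Pdgfrα+, 25.9 ± 3.71 in GFP+ Pdgfrα- and 3.87 ± 2.03 in GFP- Pdgfrα- cells. The mean of GFP+ Pdgfrα+ cells was 3.78-fold that of GFP+ Pdgfrα- cells, and the log2 difference was 1.87 (standard error 0.28, adjusted p = 0.000542, limma). GFP- Pdgfrα+ cells were 31.6-fold above GFP- Pdgfrα- cells (50.2-fold without GFP- Pdgfrα- replicate 2), at a log2 difference of 4.72 (standard error 0.28, adjusted p = 3.39e-08, limma).

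GFP+ Pdgfrα- cells held 6.69-fold more *Csf1* than GFP- Pdgfrα- cells (10.6-fold without GFP- Pdgfrα- replicate 2), a log2 difference of 2.52 (standard error 0.28, adjusted p = 1.17e-05, limma), with both libraries above both. The log2 difference of *Csf1* between the Pdgfrα+ populations was -0.33 (standard error 0.28, adjusted p = 0.602, limma), and it was not called under any of the 21 alternatives. GFP+ Pdgfrα- cells lay below GFP- Pdgfrα+ cells by a log2 difference of -2.20 (standard error 0.28, adjusted p = 0.000125, limma), and GFP+ Pdgfrα+ cells above GFP- Pdgfrα- cells by 4.39 (0.28, 7.04e-08). The interaction of *Csf1* was -2.85 (standard error 0.40, adjusted p = 0.000124, limma). GFP+ cells held more *Csf1* among Pdgfrα- cells and, by a difference that did not pass the test, less among Pdgfrα+ cells. The interaction and the 5 called differences of *Csf1* were called under all alternatives run.

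*Tnfrsf11b* (ENSMUSG00000063727), which encodes the decoy osteoprotegerin, lies on the minus strand of chromosome 15 at positions 54082174 to 54110039. Its value was 22.2 and 27.2 in GFP+ Pdgfrα+ libraries, 18.8 and 22.4 in GFP- Pdgfrα+, 0.850 and 4.50 in GFP+ Pdgfrα-, and 1.58 and 0.354 in GFP- Pdgfrα- libraries. Both Pdgfrα+ populations are high and overlap, and both Pdgfrα- populations are low and overlap. The means were 24.7 ± 3.49 (SD, n = 2) in GFP+ Pdgfrα+, 20.6 ± 2.57 in GFP- Pdgfrα+, 2.68 ± 2.58 in GFP+ Pdgfrα- and 0.967 ± 0.867 in GFP- Pdgfrα- cells. Within each Pdgfrα class the values, given as mean ± 1 SD, overlap.

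*Tnfrsf11b* was 9.23-fold higher in GFP+ Pdgfrα+ cells than in GFP+ Pdgfrα- cells, at a log2 difference of 3.00 (standard error 0.51, adjusted p = 0.00108, limma), and 21.3-fold higher in GFP- Pdgfrα+ cells than in GFP- Pdgfrα- cells, with 3.53 (0.51, 6.85e-05). The fold over GFP- Pdgfrα- cells rests on 5 reads in their replicate 1 and 1 read in replicate 2, and it was 58.2 without the first and 13.0 without the second. GFP+ Pdgfrα- cells were below GFP- Pdgfrα+ cells by -2.75 (standard error 0.51, adjusted p = 0.00153, limma) and GFP+ Pdgfrα+ above GFP- Pdgfrα- cells by 3.77 (0.51, 4.14e-05). These 4 calls of *Tnfrsf11b* were made under all alternatives run, with sizes of 2.93 to 4.77 for GFP- Pdgfrα+ and of 3.18 to 5.04 for GFP+ Pdgfrα+ over GFP- Pdgfrα- cells. The size of the difference to GFP+ Pdgfrα- cells depends on which library is left out, because 3 reads stood in replicate 1 and 17 in replicate 2: for GFP+ Pdgfrα+ over GFP+ Pdgfrα- cells it was 2.22 without GFP+ Pdgfrα- replicate 1 (5.49-fold) and 3.79 without GFP+ Pdgfrα- replicate 2 (29.1-fold), and for GFP+ Pdgfrα- over GFP- Pdgfrα+ cells -1.97 and -3.54. *Tnfrsf11b* had a log2 difference between the Pdgfrα+ populations of 0.25 (standard error 0.51, adjusted p = 0.854, limma). For GFP+ Pdgfrα- over GFP- Pdgfrα- cells it was 0.77 (0.51, 0.224), which became 1.56 (adjusted p = 0.0260) without GFP+ Pdgfrα- replicate 1 and -0.015 (adjusted p = 0.990) without GFP+ Pdgfrα- replicate 2. Over all its alternatives it ran from -0.015 to 1.62.

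The ratio of *Tnfsf11* to *Tnfrsf11b* within a library was 0.391 and 0.153 in GFP+ Pdgfrα+ libraries and 0.0201 and 0.0596 in GFP- Pdgfrα+ libraries. The GFP+ Pdgfrα+ libraries are higher and the ranges do not overlap. With a pseudocount of 1 added to each value the ratios were 0.418 and 0.183 in GFP+ Pdgfrα+ libraries. They were 0.0697 and 0.0998 in GFP- Pdgfrα+ libraries, and these ranges do not overlap either. Between these populations the decoy overlapped and the ligand did not, with 1 and 4 reads of the ligand in GFP- Pdgfrα+ libraries. In the 4 Pdgfrα- libraries the ratio rests on 0 to 2 reads of *Tnfsf11* and 1 to 17 of *Tnfrsf11b* and is not read. The ratio is not corrected for length and was compared only between libraries.

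*Tnfrsf11a* (ENSMUSG00000026321), which encodes RANK, the receptor that marks cells able to answer RANKL, lies on the plus strand of chromosome 1 at positions 107677300 to 107744558. Its value was 0.690 and 1.87 in GFP+ Pdgfrα+ libraries, 0.364 and 0.386 in GFP+ Pdgfrα-, 0.378 and 2.52 in GFP- Pdgfrα+, and 0.144 and 0.118 in GFP- Pdgfrα- libraries. Only GFP+ Pdgfrα+ and GFP- Pdgfrα+ replicate 2 exceed the floor, and the GFP- Pdgfrα- libraries hold no read. The highest count was 8 reads in a library, and the summed reads were 8 in GFP+ Pdgfrα+, 2 in GFP+ Pdgfrα-, 9 in GFP- Pdgfrα+ and 0 in GFP- Pdgfrα- cells.

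*Tnfrsf11a* was not called by limma in the 6 comparisons of populations, in which its unadjusted p-values were 0.0605 or more. Its log2 difference over GFP- Pdgfrα- cells was 0.96 in GFP- Pdgfrα+ cells (standard error 0.46, adjusted p = 0.0927, limma) and 0.96 in GFP+ Pdgfrα+ cells (0.46, 0.0935). Some alternatives called these: for GFP- Pdgfrα+ cells edgeR (5.30, adjusted p = 0.0455) and the fit without GFP- Pdgfrα+ replicate 1 (1.64, 0.0131), in a range of 0.0131 to 0.628. For GFP+ Pdgfrα+ over GFP- Pdgfrα- cells *Tnfrsf11a* was called with a pseudocount of 0.1 (2.44, adjusted p = 0.0415), with voom (3.07, 0.0491) and without GFP- Pdgfrα+ replicate 1 (0.0490) or GFP- Pdgfrα+ replicate 2 (0.0451), in a range of 0.0415 to 0.400. The depth of 3221217 to 5302762 reads per library limits what can be said of RANK in these cells.

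*Ctsk* (ENSMUSG00000028111), which encodes the collagen-cleaving cysteine protease cathepsin K, lies on the plus strand of chromosome 3 at positions 95303208 to 95313284. Its value was 39.9 and 51.3 in GFP+ Pdgfrα+ libraries, 49.0 and 51.8 in GFP- Pdgfrα+, 4.25 and 4.24 in GFP+ Pdgfrα-, and 0.431 and 1.77 in GFP- Pdgfrα- libraries. The Pdgfrα+ populations overlap and lie above GFP+ Pdgfrα- cells, which lie above GFP- Pdgfrα- cells. The means were 50.4 ± 1.97 (SD, n = 2) in GFP- Pdgfrα+, 45.6 ± 8.06 in GFP+ Pdgfrα+, 4.25 ± 0.00300 in GFP+ Pdgfrα- and 1.0997 ± 0.946 in GFP- Pdgfrα- cells, from 368, 322, 33 and 8 reads.

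*Ctsk* was 10.7-fold higher in GFP+ Pdgfrα+ cells than in GFP+ Pdgfrα- cells, a log2 difference of 3.14 (standard error 0.35, adjusted p = 4.57e-05, limma). It was 45.9-fold higher in GFP- Pdgfrα+ cells than in GFP- Pdgfrα- cells, a log2 difference of 4.69 (standard error 0.35, adjusted p = 1.96e-07, limma), and in GFP+ Pdgfrα+ over GFP- Pdgfrα- cells the log2 difference was 4.54 (0.35, 2.84e-07). With 8 reads in GFP- Pdgfrα- cells the fold of GFP- Pdgfrα+ over GFP- Pdgfrα- cells depends on the library, and it was 28.5 without GFP- Pdgfrα- replicate 1 and 117 without GFP- Pdgfrα- replicate 2. GFP+ Pdgfrα- cells were below GFP- Pdgfrα+ cells by -3.29 (0.35, 2.49e-05). These 4 calls of *Ctsk* were made under all alternatives run, with sizes of 4.15 to 5.76 for GFP- Pdgfrα+ and of 3.98 to 5.61 for GFP+ Pdgfrα+ over GFP- Pdgfrα- cells. The log2 difference between the Pdgfrα+ populations was -0.15 (standard error 0.35, adjusted p = 0.870, limma), which turned to 0.025 without GFP+ Pdgfrα+ replicate 1 (adjusted p 0.717 to 0.993 over the alternatives).

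*Ctsk* in GFP+ Pdgfrα- over GFP- Pdgfrα- cells had a log2 difference of 1.40 (standard error 0.35, adjusted p = 0.00445, limma), with both libraries above both. Quantile normalization ended this call (0.67, adjusted p = 0.118, in a range of 0.000571 to 0.118), and the value was 0.92 without GFP- Pdgfrα- replicate 1. The interaction of *Ctsk* was -1.55 (standard error 0.49, adjusted p = 0.0220, limma), and it was called under 11 of 19 alternatives, with adjusted p-values from 0.00247 to 0.181. It was lost with median centring (-1.13, 0.0732), with quantile normalization (-0.85, 0.181), and without GFP- Pdgfrα- replicate 1 (-1.07, 0.0545), GFP- Pdgfrα+ replicate 1 (-1.59, 0.0644), GFP- Pdgfrα+ replicate 2 (-1.51, 0.0779), GFP+ Pdgfrα- replicate 1 (-1.55, 0.0576), GFP+ Pdgfrα- replicate 2 (-1.55, 0.0581) or GFP+ Pdgfrα+ replicate 1 (-1.37, 0.0805).

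*Acp5* (ENSMUSG00000001348), which encodes the tartrate-resistant acid phosphatase used to stain osteoclasts, lies on the minus strand of chromosome 9 at positions 21931175 to 21940190. Its value was 0.967 and 1.58 in GFP+ Pdgfrα+ libraries, 1.09 and 1.41 in GFP+ Pdgfrα-, 0.882 and 4.01 in GFP- Pdgfrα+, and 97.2 and 108 in GFP- Pdgfrα- libraries. The pattern is unlike that of *Ctsk*: both GFP- Pdgfrα- libraries are high, and the other 6 lie near the floor and overlap. The means were 103 ± 7.70 (SD, n = 2) in GFP- Pdgfrα-, 2.45 ± 2.21 in GFP- Pdgfrα+, 1.27 ± 0.434 in GFP+ Pdgfrα+ and 1.25 ± 0.228 in GFP+ Pdgfrα- cells, from 796, 16, 8 and 9 reads.

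GFP- Pdgfrα- cells held 42.0-fold more *Acp5* than GFP- Pdgfrα+ cells, and the log2 difference of GFP- Pdgfrα+ over GFP- Pdgfrα- cells came to -5.08 (standard error 0.46, adjusted p = 1.29e-06, limma). It was -5.53 in GFP+ Pdgfrα- over GFP- Pdgfrα- cells (standard error 0.46, adjusted p = 8.60e-07, limma), an 81.9-fold difference of means, and -5.52 in GFP+ Pdgfrα+ over GFP- Pdgfrα- cells (0.46, 6.47e-07), an 80.6-fold difference. Without GFP- Pdgfrα+ replicate 1 the value for GFP- Pdgfrα+ over GFP- Pdgfrα- cells was -4.37 (25.6-fold), and without GFP- Pdgfrα+ replicate 2 it was -5.78 (116-fold). The interaction of *Acp5* was 5.08 (standard error 0.65, adjusted p = 5.91e-05, limma). All 4 calls were made under all alternatives run, and the sizes reached -6.56 in GFP+ Pdgfrα- and -6.53 in GFP+ Pdgfrα+ over GFP- Pdgfrα- cells with DESeq2.

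**Figure D1:**
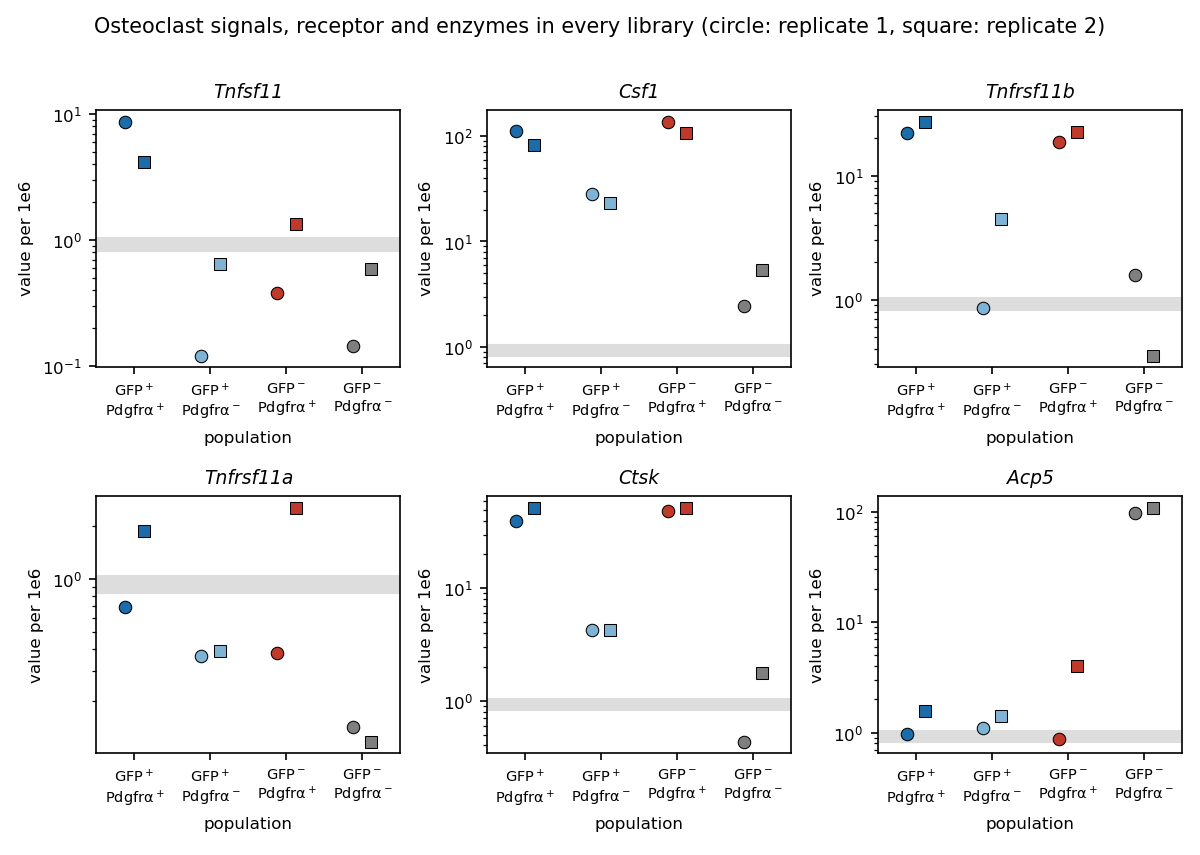
Value of each of the 6 genes in every library, on a log scale, with circles for replicate 1 and squares for replicate 2. The grey band marks 3 reads per library; *Tnfsf11* is high in GFP+ Pdgfrα+ cells, *Csf1*, *Tnfrsf11b* and *Ctsk* in both Pdgfrα+ populations and *Acp5* in GFP- Pdgfrα- cells.

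Set beside each other per kilobase of merged exons, on the same linear scale, the levels of the 6 genes rank differently in each population. In GFP+ Pdgfrα+ cells *Ctsk* had a mean of 30.8 per kilobase, *Csf1* 18.6, *Tnfrsf11b* 8.76, *Tnfsf11* 2.88, *Acp5* 0.790 and *Tnfrsf11a* 0.255. In GFP- Pdgfrα+ cells the order of the top 3 is unchanged, with *Ctsk* at 34.0, *Csf1* at 23.3 and *Tnfrsf11b* at 7.31 per kilobase, and *Tnfsf11* falls to 0.383. GFP+ Pdgfrα- cells held *Csf1* at 4.92 per kilobase, *Ctsk* at 2.87 and the other 4 genes at 0.9496 or less. In GFP- Pdgfrα- cells *Acp5* stood at 63.7 per kilobase and the other 5 genes at 0.742 or less. In both Pdgfrα+ populations, then, the decoy stood above RANKL per kilobase. In the Pdgfrα- populations *Tnfsf11* had 0 and 2 reads in the libraries, too few for this comparison.

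*Acp5* moved with markers of red cell precursors. Of the 4 erythroid markers reported here (*Klf1*, *Hba-a1*, *Hbb-b1*, *Alas2*), 4 were listed and 4 were lower in GFP- Pdgfrα+ cells than in GFP- Pdgfrα- cells, as were 26.8% of all genes. Their summed value was 6320 and 11703 in GFP- Pdgfrα- libraries, 78.9 and 48.4 in GFP+ Pdgfrα-, 35.0 and 25.2 in GFP- Pdgfrα+ and 23.8 and 27.3 in GFP+ Pdgfrα+ libraries, with *Hbb-b1* the most abundant in each of the 8. *Klf1*, a transcription factor of red cell precursors, was 150 and 169 in GFP- Pdgfrα- libraries and 2.55 or less in the other 6, of which 3 were at the floor. The log2 difference of GFP- Pdgfrα+ minus GFP- Pdgfrα- cells was -6.37 for *Klf1* (standard error 0.42, adjusted p = 7.56e-08, limma; -7.64 to -6.23 over its alternatives). The part of red cell precursors in the *Acp5* value was not tested.

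*Car2* and *Ctse*, both known from red cells as well, had the pattern of *Acp5*. *Car2*, the carbonic anhydrase that supplies protons to osteoclasts, was 13.7 and 7.33 in GFP+ Pdgfrα+ libraries, 22.7 and 22.8 in GFP+ Pdgfrα-, 5.93 and 10.5 in GFP- Pdgfrα+, and 2129 and 2323 in GFP- Pdgfrα- libraries. The cathepsin *Ctse* was 3.73 and 2.16, 8.86 and 5.79, 1.64 and 5.79, and 1098 and 1215 in the same order. As with *Acp5*, both GFP- Pdgfrα- libraries lie above the other 6. The log2 difference of GFP- Pdgfrα+ minus GFP- Pdgfrα- cells was -7.96 for *Car2* (standard error 0.28, adjusted p = 3.84e-10, limma) and -8.09 for *Ctse* (0.40, 5.76e-09; -8.78 to -7.41 with a library left out). *Acp1*, an acid phosphatase of most cells, was 226 and 289 in GFP- Pdgfrα- libraries and 44.4 to 56.2 in the others, with a log2 difference of -2.36 (standard error 0.17, adjusted p = 1.50e-07, limma).

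Promoter sequences of the enzymes are printed because *Acp5* and *Ctsk* had unlike patterns, and *Acp5* has several annotated starts. They are the 250 bases before each start from RefSeq on GRCm38.p6, where 5 of the 6 genes were matched by symbol, and a promoter of *Tnfrsf11b* was not analysed here. Capitals mark GATAA on either strand, the core bound by GATA factors, read as TTATC where it lies on the other strand. *Acp5* has starts with promoters at chr9:22135747-22135996, chr9:22131866-22132115 and chr9:22130599-22130848, on the minus strand, and *Ctsk* has chr3:95498960-95499209, on the plus strand.
Acp5 promoter at 22135747: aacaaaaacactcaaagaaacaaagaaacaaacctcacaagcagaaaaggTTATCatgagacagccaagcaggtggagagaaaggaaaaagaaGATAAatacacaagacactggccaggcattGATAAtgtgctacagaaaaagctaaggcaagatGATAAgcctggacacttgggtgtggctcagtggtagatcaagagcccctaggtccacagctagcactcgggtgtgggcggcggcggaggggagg
Acp5 promoter at 22131866: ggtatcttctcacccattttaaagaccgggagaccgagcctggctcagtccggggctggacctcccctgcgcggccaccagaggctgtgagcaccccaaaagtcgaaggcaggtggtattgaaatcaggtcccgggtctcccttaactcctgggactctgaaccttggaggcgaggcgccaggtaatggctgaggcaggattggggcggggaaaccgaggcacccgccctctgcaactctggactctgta
Acp5 promoter at 22130599: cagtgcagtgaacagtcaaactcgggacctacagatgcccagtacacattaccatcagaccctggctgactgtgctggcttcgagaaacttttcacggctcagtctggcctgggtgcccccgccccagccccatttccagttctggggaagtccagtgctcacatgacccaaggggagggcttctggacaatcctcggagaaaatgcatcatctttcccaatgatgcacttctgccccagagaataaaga
Ctsk promoter: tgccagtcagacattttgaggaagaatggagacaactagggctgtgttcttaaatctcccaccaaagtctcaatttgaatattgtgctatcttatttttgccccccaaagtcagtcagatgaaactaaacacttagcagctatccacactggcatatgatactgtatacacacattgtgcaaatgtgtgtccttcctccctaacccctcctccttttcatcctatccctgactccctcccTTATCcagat
The farthest upstream *Acp5* promoter holds 4 matches to GATAA, 3 in the printed direction and 1 in the other, beginning 200, 157, 127 and 94 bases before the start, and the other *Acp5* promoters hold 0. *Ctsk* holds 1, on the other strand, 10 bases before the start, and the promoters of *Csf1*, *Tnfsf11* and *Tnfrsf11a* hold 0. At least 1 match to GATAA on either strand is found in 22.6% of all 32851 promoters of this length. The share with 4 matches was not computed. The letters TGTGGT (bound by Runx factors; 14.0% of promoters) and TGANTCA (bound by AP-1; 6.75%) were not in these windows. A match describes letters only, and the deposited values do not tell which start was used.

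Whether resorbing cells are present was read from 12 osteoclast markers, of which 9 were listed: *Acp5*, *Ctsk*, *Tnfrsf11a*, *Calcr*, *Itgb3*, *Ocstamp*, *Mmp9*, *Nfatc1* and *Csf1r*. *Oscar*, *Dcstamp* and *Atp6v0d2* were looked up by symbol and were not listed, so they have no value here. The summed value was 235 and 274 in GFP+ Pdgfrα+ libraries, 191 and 187 in GFP+ Pdgfrα-, 364 and 346 in GFP- Pdgfrα+ and 134 and 126 in GFP- Pdgfrα- libraries. The most abundant marker changed with the population: *Itgb3* in GFP+ Pdgfrα+, *Calcr* in GFP+ Pdgfrα-, *Nfatc1* in GFP- Pdgfrα+ and *Acp5* in GFP- Pdgfrα- cells. *Tnfrsf11a* was at or under the floor in 6 of the 8 libraries, and so were *Ocstamp* in 4 and *Csf1r* in 4. Of the 9 markers 5 had their highest mean in GFP- Pdgfrα+, 2 in GFP- Pdgfrα-, 1 in GFP+ Pdgfrα+ and 1 in GFP+ Pdgfrα- libraries. The share of all genes that peak in each population was not computed, so these counts are a description. Without *Nfatc1* the sums were 154 and 183 in GFP+ Pdgfrα+ and 139 and 137 in GFP+ Pdgfrα- libraries. They were 199 and 187 in GFP- Pdgfrα+ and 123 and 116 in GFP- Pdgfrα- libraries. The markers did not peak together, so a sum does not measure osteoclasts.

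*Calcr*, the calcitonin receptor, was 85.8 and 78.3 in GFP+ Pdgfrα- libraries, 2.35 and 2.16 in GFP+ Pdgfrα+, 1.39 and 0.148 in GFP- Pdgfrα+, and 0.718 and 0.118 in GFP- Pdgfrα- libraries. Both GFP+ Pdgfrα- libraries are above the other 6, and its log2 difference in GFP+ Pdgfrα+ over GFP+ Pdgfrα- cells came to -4.67 (standard error 0.44, adjusted p = 1.36e-05, limma). Markers of muscle precursors moved with it. Of 5 skeletal muscle markers, 5 were listed and 4 were lower in GFP+ Pdgfrα+ cells than in GFP+ Pdgfrα- cells (*Myod1*, *Myf5*, *Pax7*, *Acta1*, but not *Ckm*), as were 11.1% of all genes, and the summed value was 537 and 595 in GFP+ Pdgfrα- libraries, with *Pax7* the most abundant, against 36.3 and 44.7 in GFP+ Pdgfrα+, 17.3 and 12.6 in GFP- Pdgfrα+ and 10.8 and 7.66 in GFP- Pdgfrα- libraries. Of the 3 Schwann precursor markers reported here (*Sox10*, *Erbb3*, *Foxd3*), 3 were lower in GFP+ Pdgfrα+ cells than in GFP+ Pdgfrα- cells as well, with sums of 222 and 221 in GFP+ Pdgfrα- libraries, led by *Erbb3*, and 35.2 or less in the other 6. The part of these cells in the *Calcr* value was not tested.

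*Nfatc1*, the transcription factor that RANK induces in osteoclasts and that other cells also use, was 81.9 and 91.3 in GFP+ Pdgfrα+ libraries, 52.1 and 49.8 in GFP+ Pdgfrα-, 165 and 159 in GFP- Pdgfrα+, and 11.3 and 10.5 in GFP- Pdgfrα- libraries. *Itgb3*, the β subunit of the osteoclast vitronectin receptor, was 92.4 and 93.3, 41.9 and 43.1, 144 and 124, and 11.1 and 1.06 in the same order. Both are highest in GFP- Pdgfrα+ cells and lowest in GFP- Pdgfrα- cells, in which *Acp5* is high. The log2 difference of GFP- Pdgfrα+ minus GFP- Pdgfrα- cells was 3.77 for *Nfatc1* (standard error 0.16, adjusted p = 1.64e-09, limma) and 4.76 for *Itgb3* (0.55, 1.18e-05), which was 6.03 without GFP- Pdgfrα- replicate 1 and 3.48 without GFP- Pdgfrα- replicate 2. *Mmp9*, a gelatinase of osteoclasts and their precursors, was 16.4 and 26.6 in GFP+ Pdgfrα+ libraries, 2.55 and 7.33 in GFP+ Pdgfrα-, 0.630 and 1.34 in GFP- Pdgfrα+, and 5.89 and 2.71 in GFP- Pdgfrα- libraries, with a log2 difference between the Pdgfrα+ populations of 3.49 (standard error 0.50, adjusted p = 0.00192, limma; 3.16 to 4.69 over its alternatives).

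The blood lineage from which osteoclasts arise left few reads. Of 14 myeloid markers, 8 were listed (*Ptprc*, *Csf1r*, *Itgam*, *Cd68*, *Lyz2*, *Cd14*, *Tyrobp*, *Spi1*), with a summed value of 5.80 and 18.7 in GFP+ Pdgfrα+ libraries, 25.7 and 26.0 in GFP+ Pdgfrα-, 22.7 and 11.9 in GFP- Pdgfrα+ and 54.9 and 51.9 in GFP- Pdgfrα- libraries. *Lyz2* was the most abundant in 6 libraries, and *Cd68* and *Csf1r* in the GFP+ Pdgfrα+ libraries. *Csf1r*, the receptor for the product of *Csf1*, was 0.690 and 5.89 in GFP+ Pdgfrα+ libraries, 1.34 and 0.900 in GFP+ Pdgfrα-, 0.882 and 0.743 in GFP- Pdgfrα+, and 6.18 and 1.53 in GFP- Pdgfrα- libraries, at the floor in 4 of 8. *Ptprc*, which encodes CD45, was 11.3 and 6.72 in GFP- Pdgfrα- libraries and 1.58 or less in the other 6, with a log2 difference of -3.10 in GFP- Pdgfrα+ over GFP- Pdgfrα- cells (standard error 0.41, adjusted p = 3.35e-05, limma; -8.10 to -2.76 over its alternatives, the larger sizes from tools that use the reads). In that comparison 4 of 8 myeloid markers were lower (*Ptprc*, *Itgam*, *Lyz2*, *Cd14*, of which *Ptprc* was called under all 20 alternatives) and 0 higher, where 26.8% of all genes (4250) were lower. With quantile normalization 7 of the 8 were lower, where 5086 of all genes were. With median centring 6 were lower, where 5720 of all genes were. The part of CD45+ cells in the *Acp5* value was not tested. *Adgre1*, *C1qa*, *C1qb*, *Aif1*, *Fcgr3* and *Cx3cr1* were looked up by symbol and were not listed.

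**Figure D2:**
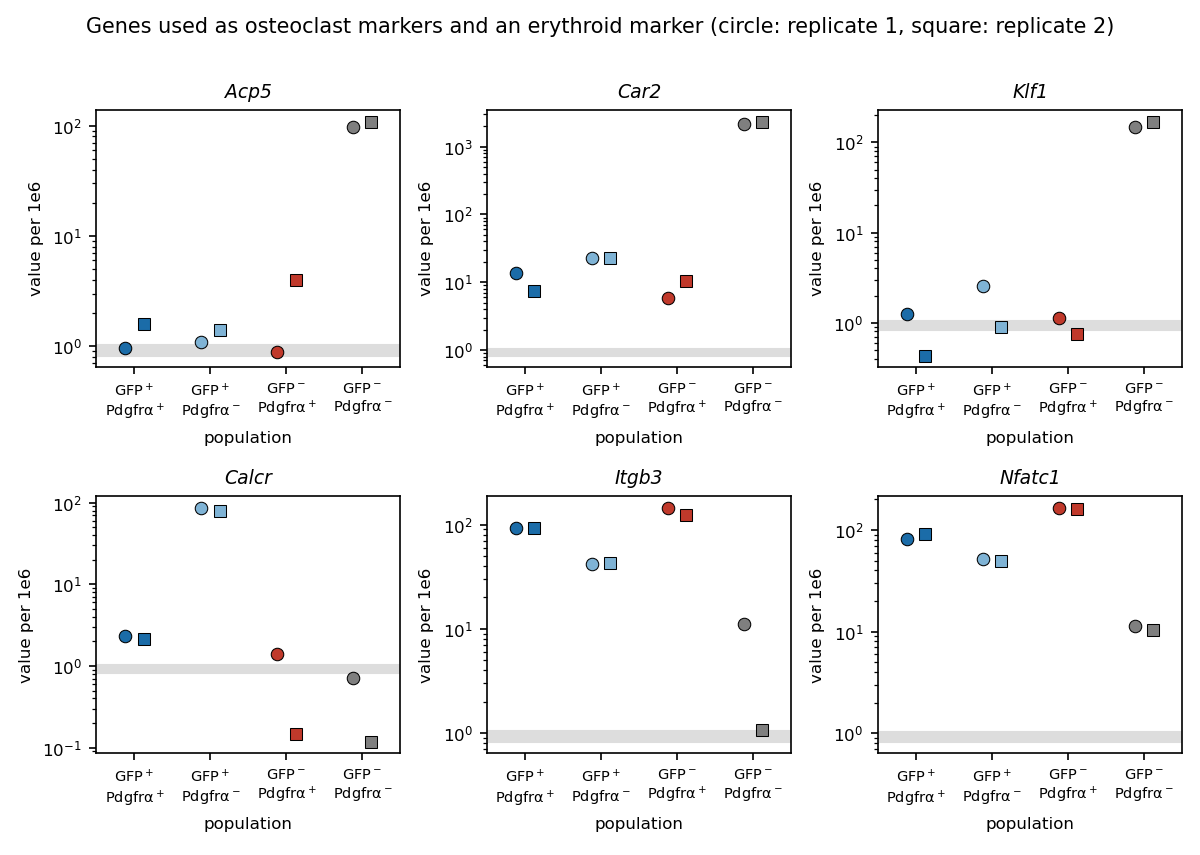
Value in every library of *Acp5* and *Car2*, of the erythroid marker *Klf1*, and of the osteoclast markers *Calcr*, *Itgb3* and *Nfatc1*, on a log scale. *Acp5*, *Car2* and *Klf1* are high in GFP- Pdgfrα- cells, in which the other 3 are low.

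The wider list of osteoclast fusion, identity and acid secretion has 20 genes, of which 15 were listed. In the comparison of GFP- Pdgfrα+ with GFP- Pdgfrα- cells 7 of the 15 were higher and 3 lower (*Car2*, *Ostm1*, *Mmp9*), and the median log2 difference was 0.82, against 0.17 for all genes, of which 59.7% were called. The median was 0.37 with median centring (6 higher and 3 lower), against -0.28 for all genes, and 0.38 with quantile normalization (7 and 4), against -0.15. When GFP+ Pdgfrα+ cells were set against GFP+ Pdgfrα- cells, 6 were higher and 2 lower (*Calcr*, *Car2*), with a median of 0.19 against -0.02 for all genes, and this split became 2 higher and 2 lower, with a median of -0.09 against -0.29 for all genes, without mitochondrial genes. Of the 15, 1 was higher in GFP+ Pdgfrα+ cells than in GFP- Pdgfrα+ cells, *Mmp9*, and 1 lower, *Nfatc1*, which was called under 17 of 21 alternatives, with a median of -0.09 against 0.0047. The lists that follow are read against the same medians of all genes. *Mmp14*, a collagenase on the surface of stromal cells, was high in both Pdgfrα+ populations like *Ctsk*: it was 408 and 398 in GFP+ Pdgfrα+, 85.1 and 116 in GFP+ Pdgfrα-, 531 and 512 in GFP- Pdgfrα+ and 39.8 and 43.5 in GFP- Pdgfrα- libraries, a log2 difference of 2.01 in GFP+ Pdgfrα+ over GFP+ Pdgfrα- cells (standard error 0.15, adjusted p = 2.76e-06, limma). *Itgav*, the partner of *Itgb3*, was 183 and 188 in GFP+ Pdgfrα+, 113 and 110 in GFP+ Pdgfrα-, 156 and 169 in GFP- Pdgfrα+ and 5.03 and 7.43 in GFP- Pdgfrα- libraries, and *Plekhm1* was 53.2 and 59.4, 28.5 and 40.3, 60.4 and 64.0, and 34.6 and 37.4 in the same order, called in 4 of the 6 comparisons.

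Downstream of RANK and c-Fms, 22 signalling genes were all listed. Of these, 8 were higher and 7 lower in GFP- Pdgfrα+ cells than in GFP- Pdgfrα- cells, with a median log2 difference of -0.0045, and with median centring 6 were higher and 11 lower, with quantile normalization 9 and 9, and without mitochondrial genes 7 and 8. Set against GFP+ Pdgfrα- cells, GFP+ Pdgfrα+ cells were higher in 2 (*Gab2*, *Akt1*) and lower in 4 (*Map3k14*, *Nfkbia*, *Fos*, *Jun*), with a median of -0.02, equal to that of all genes, and without mitochondrial genes 1 was higher and 6 lower. The AP-1 gene *Fos* was 228 and 172 in GFP+ Pdgfrα+ libraries and 465 and 505 in GFP+ Pdgfrα- libraries, and *Jun* was 132 and 127 against 481 and 504. The log2 differences were -1.29 for *Fos* (standard error 0.19, adjusted p = 0.000368, limma) and -1.92 for *Jun* (0.14, 2.32e-06). *Lgr4*, a further receptor for RANKL that damps its signal, was 102 and 107 in GFP+ Pdgfrα+, 62.5 and 74.0 in GFP+ Pdgfrα-, 64.2 and 56.0 in GFP- Pdgfrα+ and 10.5 and 4.83 in GFP- Pdgfrα- libraries. Unlike *Tnfrsf11a* it was well above the floor in each population, and in GFP- Pdgfrα+ over GFP- Pdgfrα- cells its log2 difference was 2.90 (standard error 0.27, adjusted p = 1.57e-06, limma). The adaptor *Traf6*, which binds RANK, was lower in GFP- Pdgfrα+ cells than in GFP- Pdgfrα- cells (-0.76, standard error 0.18, adjusted p = 0.00284, limma), and *Map3k7* and *Tab2* were called in 0 and 1 of the 6 comparisons.

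Of 26 regulators through which osteoblastic cells set *Tnfsf11* and *Tnfrsf11b*, 26 were listed. Within the Pdgfrα+ cells, where the call of *Tnfsf11* was weak and *Tnfrsf11b* did not pass the test, 8 of the 26 were called, each higher in GFP+ Pdgfrα+ cells, with a median log2 difference of 0.07 against 0.0047 for all genes. Under each of the 3 scaling alternatives those counts were 8 higher and 1 lower. The 8 called regulators include *Runx2*, *Dmp1* and *Phex*, which the osteoblast and osteocyte marker lists below also hold, so these counts are not separate. Against GFP+ Pdgfrα- cells 15 were called higher in GFP+ Pdgfrα+ cells, with a median of 0.86, which became 12 higher and 2 lower without mitochondrial genes, and for GFP- Pdgfrα+ over GFP- Pdgfrα- cells 19 were higher and 2 lower (*Creb1*, *Atf4*), with a median of 1.76. *Lifr*, a receptor subunit for cytokines that raise RANKL, was 607 and 467 in GFP+ Pdgfrα+, 125 and 143 in GFP+ Pdgfrα-, 171 and 169 in GFP- Pdgfrα+ and 7.61 and 5.54 in GFP- Pdgfrα- libraries, with a log2 difference between the Pdgfrα+ populations of 1.64 (standard error 0.18, adjusted p = 0.000275, limma). *Ctnnb1*, which encodes β-catenin, was 776 and 609 in GFP+ Pdgfrα+ libraries and 417 or less in the others, a log2 difference of 0.88 over GFP- Pdgfrα+ cells (standard error 0.13, adjusted p = 0.00264, limma), called under 19 of 21 alternatives. *Il6st*, *Lrp6* and *Notch2* were not called between these populations, and *Ebf1* was, as lower in GFP+ Pdgfrα+ cells, only under 11 of 21 alternatives.

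From the 26 regulators, a pair with both GFP+ Pdgfrα+ libraries above the other 6, as *Tnfsf11* has, was singled out after the values were seen. *Vdr*, the receptor for active vitamin D, which raises RANKL in osteoblastic cells, was 174 and 118 in GFP+ Pdgfrα+ libraries, 21.0 and 17.4 in GFP+ Pdgfrα-, 14.5 and 8.17 in GFP- Pdgfrα+, and 3.59 and 4.13 in GFP- Pdgfrα- libraries. *Ptgs2*, the enzyme that makes prostaglandins, was 78.0 and 64.0, 3.52 and 2.44, 8.70 and 2.52, and 1.87 and 1.77 in the same order. The log2 difference between the Pdgfrα+ populations was 3.59 for *Vdr* (standard error 0.30, adjusted p = 4.99e-05, limma) and 3.62 for *Ptgs2* (0.45, 0.000672; 2.89 to 4.35 with a library left out). The pair was picked on these same values, so its p-values are a description and do not bear on *Tnfsf11*.

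Osteoblast markers moved with *Tnfsf11*. Of 7 (*Runx2*, *Sp7*, *Alpl*, *Ibsp*, *Bglap*, *Col1a1*, *Spp1*), 7 were listed and 7 were higher in GFP+ Pdgfrα+ cells than in GFP- Pdgfrα+ cells, and their summed value was 60761 and 44652 in GFP+ Pdgfrα+ libraries, 17317 and 15673 in GFP- Pdgfrα+, 3827 and 3169 in GFP+ Pdgfrα- and 549 and 671 in GFP- Pdgfrα- libraries, with *Col1a1* the most abundant in each of the 8. Without *Col1a1* the sums were 9577 and 6340 in GFP+ Pdgfrα+, 727 and 606 in GFP+ Pdgfrα-, 476 and 321 in GFP- Pdgfrα+ and 114 and 111 in GFP- Pdgfrα- libraries, so the order of GFP+ Pdgfrα- and GFP- Pdgfrα+ cells turns. Of GFP+ Pdgfrα- over GFP- Pdgfrα+ cells *Ibsp*, *Spp1* and *Bglap* were higher, under 21, 18 and 9 of 21 alternatives, and *Runx2* and *Col1a1* lower under all. *Sp7*, the osteoblast transcription factor osterix, was 222 and 140 in GFP+ Pdgfrα+, 11.8 and 16.3 in GFP+ Pdgfrα-, 17.5 and 12.6 in GFP- Pdgfrα+ and 2.15 and 5.07 in GFP- Pdgfrα- libraries, with a log2 difference between the Pdgfrα+ populations of 3.48 (standard error 0.35, adjusted p = 0.000181, limma). Of 5 osteocyte markers 4 were listed, and their sum was 368 and 292 in GFP+ Pdgfrα+, 91.5 and 74.3 in GFP+ Pdgfrα-, 20.2 and 22.0 in GFP- Pdgfrα+ and 8.33 and 8.02 in GFP- Pdgfrα- libraries, with *Dmp1* and *Phex* higher in GFP+ Pdgfrα+ cells than in GFP- Pdgfrα+ cells, and *Mepe* and *Sost* at 4.005 or less. Other markers were called in this direction too, 2 of 3 of Schwann precursors (*Sox10* and *Erbb3*, with a median log2 difference over the 3 of 2.88) and 2 of 5 of skeletal muscle (*Pax7* and, under 17 of 21 alternatives, *Myf5*, with 1.36), and both sets were highest in GFP+ Pdgfrα- cells. The part of any of these cells in the *Tnfsf11* value was not tested.

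*Csf1*, *Tnfrsf11b* and *Ctsk* did not follow the osteoblast markers in this way: the summed osteoblast value of GFP+ Pdgfrα+ libraries lies above that of GFP- Pdgfrα+ libraries, while these 3 genes overlap between the populations. Between libraries of the same replicate number, *Tnfrsf11b* was higher in GFP+ Pdgfrα+ cells, and *Csf1* and *Ctsk* were lower. None of the 3 was called between these populations. Of 7 chondrocyte markers 6 were listed, and their sum was 604 and 1900 in GFP- Pdgfrα+, 537 and 944 in GFP- Pdgfrα-, 321 and 379 in GFP+ Pdgfrα+ and 80.9 and 121 in GFP+ Pdgfrα- libraries. *Acan* and *Comp* were lower in GFP+ Pdgfrα+ cells than in GFP- Pdgfrα+ cells, and *Sox9* and *Col2a1* were not called, except under 1 of 21 alternatives each. In GFP+ Pdgfrα+ over GFP+ Pdgfrα- cells 3 of the 6 were higher (*Acan*, *Col2a1*, *Comp*) and 0 lower, with a median log2 difference of 0.91, and in GFP- Pdgfrα+ over GFP- Pdgfrα- cells 3 were higher (*Sox9*, *Acan*, *Comp*) and 2 lower (*Col10a1*, *Matn1*), with a median of 0.91 (0.46 with median centring, against -0.28 for all genes). Of 5 endothelial markers 5 were listed, and in GFP- Pdgfrα+ over GFP- Pdgfrα- cells 1 was higher (*Tek*) and 2 lower (*Pecam1*, *Emcn*), with sums of 30.6 to 113 over the 8 libraries, while *Cdh5* and *Kdr* were called in 0 of the 6 comparisons. *Cd79a* was the lymphoid marker listed, of 6, and its value was 3.52 or less.

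Of 29 stromal signals that act on osteoclasts beside the 6 genes, 22 were listed. Of the 22, 11 were called in GFP+ Pdgfrα+ over GFP+ Pdgfrα- cells, each higher like *Csf1* and *Tnfrsf11b*, with a median log2 difference of 0.58, and without mitochondrial genes 10 were higher and 1 lower. For GFP- Pdgfrα+ over GFP- Pdgfrα- cells 14 were higher and 2 lower (*Il1b*, *Tgfb1*), with a median of 2.27. Between the Pdgfrα+ populations 3 were higher in GFP+ Pdgfrα+ cells (*Tgfb1*, *Cxcl12*, *Sparc*) and 3 lower (*Ptn*, *Postn*, *Anxa2*), with a median of -0.13, and of these *Cxcl12* and *Postn* were called under all 21 alternatives. *Csf2*, *Csf3*, *Tnf*, *Il1a*, *Il6*, *Il11* and *Tnfsf10* were looked up by symbol and were not listed.

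*Sfrp1*, a secreted Wnt antagonist that also binds RANKL, was 345 and 381 in GFP+ Pdgfrα+ libraries, 38.0 and 31.0 in GFP+ Pdgfrα-, 357 and 412 in GFP- Pdgfrα+, and 1.58 and 1.30 in GFP- Pdgfrα- libraries. Like *Tnfrsf11b*, it was high in both Pdgfrα+ populations, which overlap, but its Pdgfrα- populations lie apart. Its log2 difference in GFP+ Pdgfrα+ over GFP+ Pdgfrα- cells came to 3.36 (standard error 0.17, adjusted p = 2.04e-07, limma). *Postn*, the matrix protein periostin, was 4514 and 5289 in GFP+ Pdgfrα+, 841 and 855 in GFP+ Pdgfrα-, 11988 and 11989 in GFP- Pdgfrα+ and 166 and 195 in GFP- Pdgfrα- libraries, so it was higher in the population with less *Tnfsf11*. Its log2 difference in GFP+ Pdgfrα+ over GFP- Pdgfrα+ cells came to -1.29 (standard error 0.13, adjusted p = 0.000141, limma). A second ligand of c-Fms, *Il34*, singled out after its values were seen, was 5.02 or less in all 8 libraries, so of the ligands of that receptor *Csf1* was the abundant one in Pdgfrα+ cells.

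**Figure D3:**
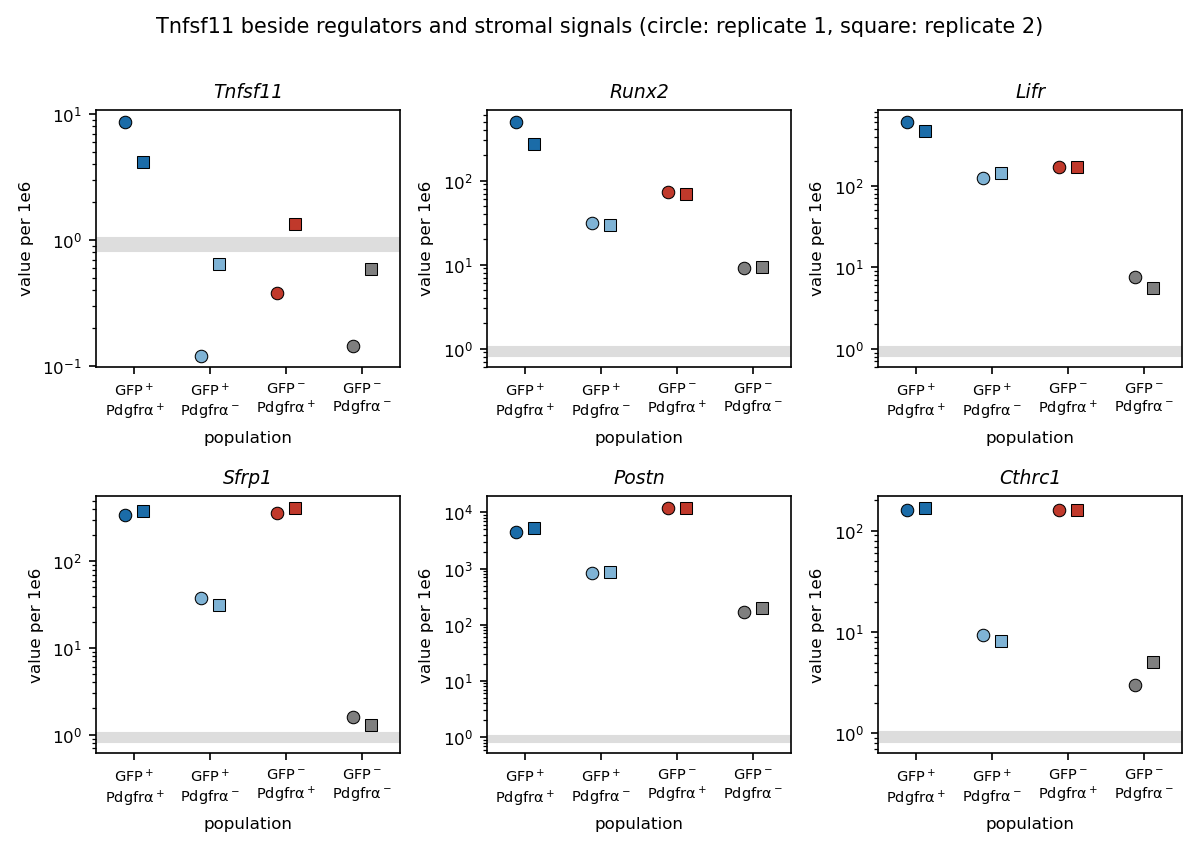
Value in every library of *Tnfsf11*, of its regulators *Runx2* and *Lifr*, and of the secreted factors *Sfrp1*, *Postn* and *Cthrc1*, on a log scale. *Runx2* and *Lifr* are highest in GFP+ Pdgfrα+ cells like *Tnfsf11*, and the others are high in both Pdgfrα+ populations.

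Of 20 genes that couple resorption to formation, 20 were listed. In GFP- Pdgfrα+ over GFP- Pdgfrα- cells 15 were higher and 2 lower (*Sphk1*, *Sema4d*), with a median log2 difference of 2.44, and in GFP+ Pdgfrα+ over GFP+ Pdgfrα- cells 12 were higher and 2 lower (*Bmp6*, *Pdgfb*), with a median of 1.27. Between the Pdgfrα+ populations 4 were higher in GFP+ Pdgfrα+ cells (*S1pr1*, *S1pr3*, *Sema4d*, *Plxnb1*) and 2 lower (*Igf2*, *Tgfbr2*), of which *S1pr3* and *Sema4d* were called under all 21 alternatives, and the median was 0.02 (-0.0088 with median centring). *Cthrc1*, a secreted factor that osteoclasts and stromal cells make, was 160 and 168 in GFP+ Pdgfrα+, 9.35 and 8.10 in GFP+ Pdgfrα-, 159 and 161 in GFP- Pdgfrα+ and 3.02 and 5.07 in GFP- Pdgfrα- libraries, and *Igf1*, a growth factor released during resorption, was 1277 and 1524, 199 and 134, 1826 and 1782, and 10.8 and 17.3. Like *Ctsk*, both are high in the Pdgfrα+ populations, and in GFP+ Pdgfrα+ over GFP+ Pdgfrα- cells the log2 difference was 4.09 for *Cthrc1* (standard error 0.22, adjusted p = 3.30e-07, limma) and 3.08 for *Igf1* (0.21, 1.56e-06). *Slit3* and its receptor *Robo1* were higher in this comparison as well, by 3.21 (0.18, 3.35e-07) and by 0.88 (0.21, 0.00984), the latter called under 18 of 21 alternatives.

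Around *Ctsk* and *Acp5*, 19 other cathepsins, lysosomal acid phosphatases and cystatins were chosen, and 17 were listed. Of the 17, 8 were called in GFP+ Pdgfrα+ over GFP+ Pdgfrα- cells, each higher like *Ctsk*, with a median log2 difference of 0.51, and without mitochondrial genes 6 were higher and 1 lower. For GFP- Pdgfrα+ over GFP- Pdgfrα- cells 9 were higher, and *Ctse* and *Acp1* lower like *Acp5*, with a median of 1.15. With median centring these counts were 9 higher and 5 lower (median 0.70, against -0.28 for all genes), without mitochondrial genes 9 and 4 and with quantile normalization 8 and 3. *Ctsl* was higher in GFP- Pdgfrα+ cells, by 3.05 (standard error 0.15, adjusted p = 6.15e-09, limma), whereas *Ctsb* and *Ctsd* had their highest means in GFP- Pdgfrα- cells, unlike *Ctsk*, at 227 and 281 and at 151 and 152, and did not pass the test against GFP- Pdgfrα+ cells, except with median centring and, for *Ctsd*, without mitochondrial genes. *Ctsc* was called between the Pdgfrα+ populations, higher in GFP+ Pdgfrα+ cells, and under 14 of 21 alternatives. *Cst3*, the secreted inhibitor cystatin C of cysteine proteases such as cathepsin K, was 147 and 153 in GFP+ Pdgfrα+, 41.9 and 61.1 in GFP+ Pdgfrα-, 125 and 120 in GFP- Pdgfrα+ and 23.4 and 21.8 in GFP- Pdgfrα- libraries, a log2 difference of 1.55 in GFP+ Pdgfrα+ over GFP+ Pdgfrα- cells (standard error 0.18, adjusted p = 8.34e-05, limma). So the protease *Ctsk* and its inhibitor were both highest in Pdgfrα+ cells, and *Acp5* was not.

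The genes most like each member in pattern were taken as those with the highest Pearson correlation of log2(value + 1) over the 8 libraries, among 11080 genes with a value of at least 10 in a library. The 8 libraries fall into 4 populations, so high values are common, and they are a description. For *Csf1* these were *Ifitm2* (0.998), *S100a6* (0.998), *Ldb2* (0.997) and *Reep3* (0.997). For *Tnfrsf11b* they were *Ntng2* (0.993), *Lmbr1* (0.992), *Aga* (0.988) and *F2rl1* (0.987), and for *Ctsk* they were *Ehbp1* (0.997), *Heg1* (0.996), *Tshz2* (0.996) and *Itga9* (0.996). For *Acp5* they were *Tspo2* (0.997), *Btn1a1* (0.996), *Slc22a4* (0.996) and *2310003C23Rik* (0.995), and *Tspo2* had a mean of 44.5 in GFP- Pdgfrα- cells and 0.583 or less in the other populations. *Tnfsf11* and *Tnfrsf11a* had no value of 10 and were not matched.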

How the data were processed

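RNA-seq libraries of 4 sorted populations, 2 per population, were analysed. The authors trimmed reads with cutadapt, quantified them with RSEM on NCBIM37 (Ensembl gene build 65) and normalized with voom. The deposited unit is a normalized signal, not logged, and 100% of values could be turned back into whole reads, within 0.1 read. The fit used R 4.3.3 and limma 3.58.1 (lmFit, then eBayes with a mean-variance trend; 4 residual degrees of freedom; Benjamini–Hochberg). Alternatives were a replicate block, no trend, library weights, a pseudocount of 0.1, a filter on low values, quantile normalization, median centring, no mitochondrial genes, only the compared populations, leaving out each library, and voom, edgeR 4.0.16 and DESeq2 1.42.0 on the reads. The fit without the GFP- Pdgfrα- libraries was added after the data were seen.

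The replicate number was checked as a mark of a shared pool: in each population *Xist* in replicate 2 exceeded replicate 1 by 119-fold or more, and deviations from population means correlated at 0.00433 to 0.0812 between same-numbered libraries. With the number as a block, each single-gene result printed with a log2 difference kept its side of the threshold.

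The members and lists were chosen with earlier results of these data known. Named from each list were the 4 genes with the highest mean and up to 6 genes called in at least 3 comparisons, and of marker lists also genes at the floor in all libraries. Other genes are named where a count of few genes is spelled out, or as singled out. The lists of erythroid and Schwann precursor markers are each given without 1 gene of the design, which is not reported here. The common biological coefficient of variation was 0.188 (edgeR), and 1645 listed genes miss the filter the authors state. Counting intervals are exact (95%). Tables were computed in Python 3.11.15 with pandas 2.3.3, scipy 1.17.1 and numpy 2.4.6, and drawn with matplotlib 3.10.9.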

Additional observations from a re-analysis of the deposited data

Results flagged for a closer look

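For 4 of the 6 genes the difference of GFP+ minus GFP- cells among Pdgfrα+ cells was unlike that among Pdgfrα- cells. The test was the interaction term of limma, for which 44.3% of all genes were called. The difference between these log2 differences was 1.97 for *Tnfsf11* (standard error 0.64, adjusted p = 0.0254, limma; 0.00760 to 0.310 over its alternatives) and -2.85 for *Csf1* (0.40, 0.000124). It was -1.55 for *Ctsk* (standard error 0.49, adjusted p = 0.0220, limma; 0.00247 to 0.181) and 5.08 for *Acp5* (0.65, 5.91e-05). That of *Tnfsf11* was not called with DESeq2 (3.19), edgeR (3.20), voom (3.32) or a pseudocount of 0.1 (2.90), nor without GFP- Pdgfrα- replicate 2 (1.73), GFP- Pdgfrα+ replicate 1 (1.59), GFP+ Pdgfrα- replicate 1 (1.69) or GFP+ Pdgfrα+ replicate 1 (1.52).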

How the results depend on the processing

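Of 57 single-gene results, 47 kept their direction and side of the threshold under every alternative run, and 10 did not, as stated beside each. The reversed ones were *Tnfrsf11b* in GFP+ Pdgfrα- over GFP- Pdgfrα- cells, -0.015 without GFP+ Pdgfrα- replicate 2 (-0.015 to 1.56 over left-out libraries), and *Ctsk* in GFP+ Pdgfrα+ over GFP- Pdgfrα+ cells, 0.025 without GFP+ Pdgfrα+ replicate 1 (-0.33 to 0.025).

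Between the Pdgfrα+ populations 849 genes were called, 532 with no mean-variance trend and 246 to 1083 with a library left out. Of the 6 genes 1 was called, and 0 with DESeq2, edgeR, voom, no trend, a pseudocount of 0.1 or only the compared populations, and 0 to 1 with a library left out. With a library left out, 2158 to 4056 genes were called in GFP+ Pdgfrα+ over GFP+ Pdgfrα- cells (3848 in all libraries) and 2757 to 4642 in GFP+ Pdgfrα- over GFP- Pdgfrα+ cells (4427). The *Tnfsf11* to *Tnfrsf11b* ratio of GFP- Pdgfrα+ libraries was 0.0697 and 0.0998 with a pseudocount of 1.

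Scaling moved the split of called genes (higher, lower). It was 2080 and 1768 in GFP+ Pdgfrα+ over GFP+ Pdgfrα- cells, and 1565 and 3498 without mitochondrial genes, under which GFP+ Pdgfrα- over GFP- Pdgfrα+ cells went from 2150 and 2277 to 3642 and 1708. Median centring moved GFP+ Pdgfrα- over GFP- Pdgfrα- cells from 4787 and 3740 to 3550 and 5569, GFP- Pdgfrα+ over GFP- Pdgfrα- cells from 5226 and 4250 to 3913 and 5720, GFP+ Pdgfrα+ over GFP- Pdgfrα- cells from 5221 and 4189 to 3834 and 5846 (4059 and 5132 with quantile normalization) and the interaction from 3032 and 3999 to 4427 and 2989. Apart from scaling, the split between the Pdgfrα+ populations went from 511 and 338 to 521 and 536 with voom and to 233 and 73 without GFP- Pdgfrα+ replicate 1. The cause was not tested. With 2 libraries a population and 3221217 to 5302762 reads, counts under about 20 reads limit *Tnfsf11* and *Tnfrsf11a*.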
